A study of Mus musculus with 9 samples.

Results

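The TGF-beta and BMP pathway was examined in mouse beige adipocytes grown in culture, through 58 genes of the deposited tables whose symbol stood on a list of the pathway's ligands, receptors, binding proteins, SMADs and nuclear partners. These 58 were found among 24013 gene symbols, and each matched. Poly(A) RNA had been sequenced from cells of the stromal vascular fraction of inguinal fat, a subcutaneous depot whose precursors can form beige adipocytes. There were 3 libraries from F1 offspring of the B6 and 129 strains (F1), 3 from 129X1/SvJ (129, called resistant to obesity in the series) and 3 from C57BL6/J (B6, called prone to it). All 9 libraries had the same culture. Rosiglitazone (1 µM), insulin (850 nM), T3 (1 nM) and 10% serum were present throughout, dexamethasone (1 µM), isobutylmethylxanthine (0.5 mM) and indomethacin (125 nM) were added for the first 48 hours after confluence, and RNA was taken at day 7. No pathway ligand or inhibitor is listed among these additions. The labels used here give no age or sex of the mice and no mother's strain for the F1. Nor do they say if replicate libraries were separate animals or cultures, so a p-value weighs a difference against the spread of these libraries, which may be technical.

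TGF-beta family ligands are secreted dimers that bring type I and type II serine/threonine kinase receptors together on the cell surface. TGF-betas and activins signal mainly through SMAD2 and SMAD3, and BMPs through SMAD1, SMAD5 and SMAD9. Both branches use SMAD4 as partner and are restrained by SMAD6 and SMAD7. In fat, BMPs are known for committing precursors to adipocytes, with BMP7 known for brown fat formation, while TGF-beta acting through SMAD3 is known to hold back adipocyte formation and browning. Latent TGF-beta is tethered to the matrix by LTBPs, and secreted antagonists such as follistatin, noggin and gremlin bind ligands before they reach a receptor.

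Levels are RPKM, reads per kilobase of exon per 1000000 assigned reads, so levels of different genes can be set side by side. Depth was 39686986 to 53410947 assigned reads in F1, 23710908 to 28473083 in 129 and 19130022 to 26931438 in B6, and all F1 libraries were the deepest. A gene was tested where at least 3 of the 9 libraries had an RPKM of 1 or more, which 11542 genes did, 44 of the 58 members among them. Differences are limma log2 fold changes on log2(RPKM + 1), which understate changes of low genes, with standard errors (SE) and p-values adjusted over all 11542 genes at a threshold of 0.05. Fold values are ratios of mean RPKM. For a single gene, an exact permutation test of 3 against 3 libraries cannot give a p below 0.1. In bulk RNA, fewer cells of a type and less RNA per cell cannot be told apart.

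The pathway's RNA was dominated by a few genes, most of them for secreted or surface proteins. Averaged over the 9 libraries, Fstl1, a secreted glycoprotein related to follistatin, stood highest at 248.5 RPKM. Id3, a helix-loop-helix inhibitor induced by BMPs, followed at 132.5 RPKM. The receptors Tgfbr2 and Tgfbr3 came next at 57.5 and 54.6 RPKM, and their ranges over all libraries, 43.6 to 78.3 and 46.2 to 62.1 RPKM, overlapped. Bmp1, a protease that trims procollagens and the BMP antagonist chordin, had 52.6 RPKM. Ligands were low apart from Gdf10, whose mean was 27.5 RPKM, and Smad4 was the most abundant SMAD at 17.6 RPKM.

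**Figure D1:**
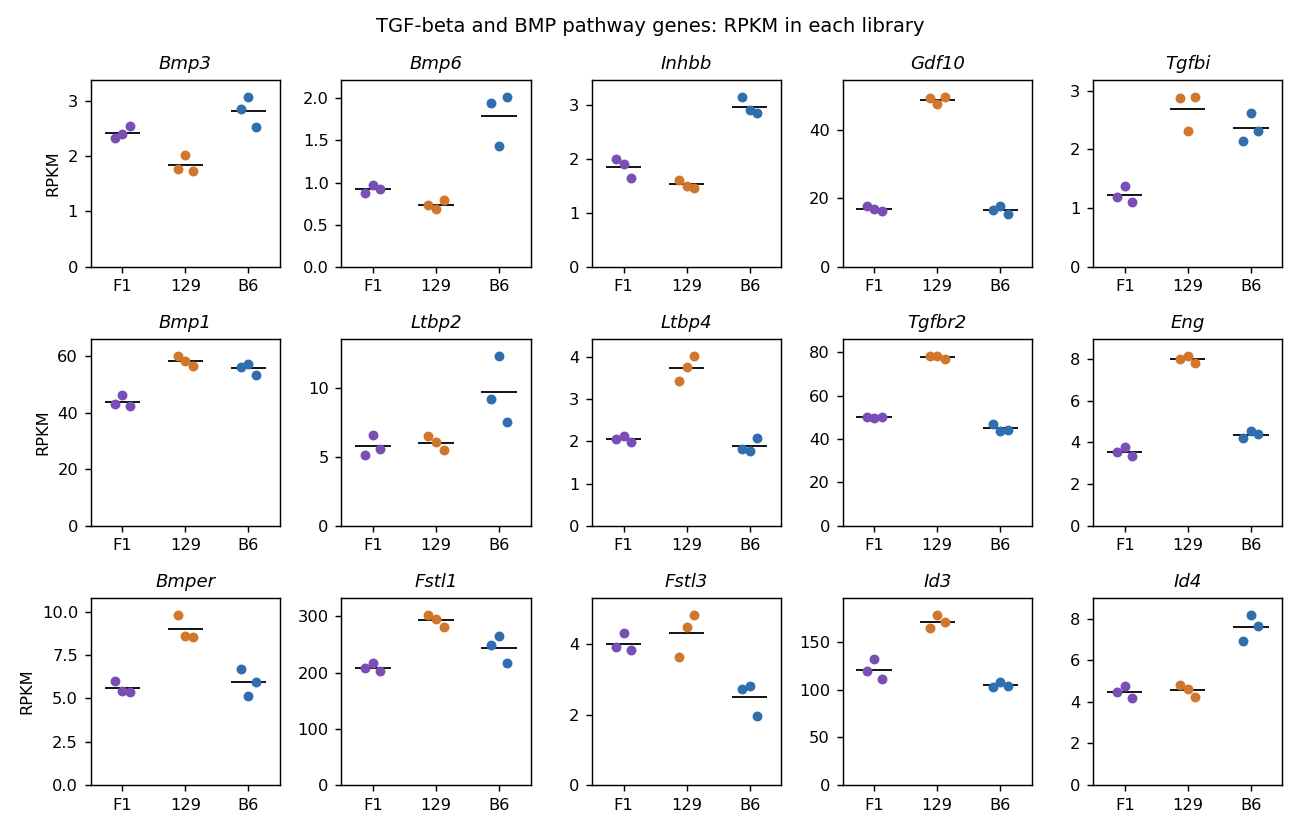
RPKM of the members given library by library on linear axes from 0, a panel per gene, with 3 points for each of F1, 129 and B6 and a bar at each group mean. Gdf10, Tgfbr2, Eng and Ltbp4 stand higher in every 129 library than in every F1 and B6 library, while Inhbb, Bmp6, Bmp3, Ltbp2 and Id4 are higher in B6 than in 129.

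Between the parents, 17 of the 44 tested members passed the test, 38.6% of them, while 37.5% of all genes tested passed, so the share was near that of all genes. Of these 17, 10 were higher in 129 (22.7% of members, against 15.9% of all genes) and 7 were lower (15.9% of members, against 21.7% of all genes). The median log2 fold change of 129 minus B6 was 0.04 over members and -0.03 over all genes tested. Changes with an absolute log2 value of at least 0.4 were called in 12 members (27.3%), 7 higher and 5 lower in 129, and in 13.3% of all genes. These counts of lower members include Bmp6, which passed the filter on low values through its B6 libraries alone. The groups' ranges did not overlap for 22 members (50%) and for 49.9% of all genes.

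**Figure D2:**
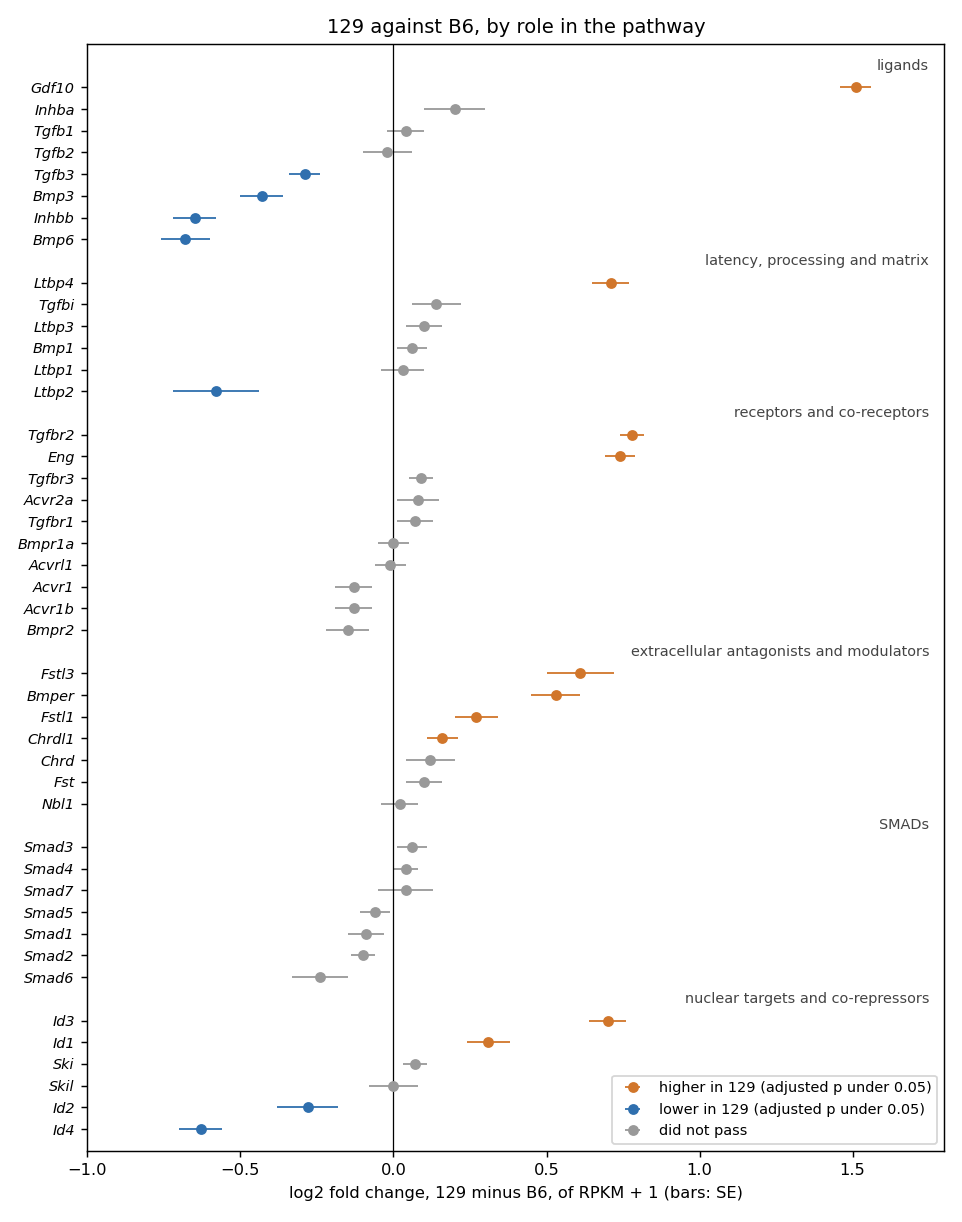
Limma log2 fold change of 129 minus B6 on log2(RPKM + 1) for the 44 tested members, ordered by role, with bars of 1 standard error and colour for members past the threshold. Gdf10 is farthest to the right at 1.51 and Bmp6, tested through its B6 libraries alone, farthest to the left at -0.68, and the SMADs lie near 0.

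Among the 16 ligands, 8 were tested. In 129 minus B6 1 rose, 4 fell and 3 did not pass, where 15.9% of all genes rose and 21.7% fell. The 4 include Bmp6, tested through its B6 libraries alone. Gdf10, also called BMP3b and a relative of Bmp3 (mm9 chromosome 14, 34736773 to 34748468, plus strand), had 17.7, 16.9 and 16.4 RPKM in F1, 49.4, 47.5 and 49.7 in 129, and 16.6, 17.7 and 15.3 in B6. Every 129 library was far above the rest, and the F1 range overlapped the B6 range. Gdf10 was 2.95-fold higher in 129 than in B6 (log2 fold change 1.51, SE 0.05, adjusted p = 9e-09). F1 cells had 0.348 of the 129 level (-1.47, SE 0.05, adjusted p = 7.48e-08), and the F1 minus B6 value of 0.04 (SE 0.05, adjusted p = 0.622) did not pass. Of 9 other tested genes within 500 kb of Gdf10, 1 was higher and 3 were lower in 129. Among all genes tested, 15.9% were higher and 21.7% lower.

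The promoter window of Gdf10 is shown because this gene had the largest parental change of the members. It is the RefSeq window of GRCm38.p6, chr14:33923337-33923636 on the plus strand, from 250 bases before to 50 after the annotated start. Capitals mark GGCGCC, a GC-rich element bound by BMP SMADs, 16 bases after the start, and CAGAC, the core of the CAGA box of SMAD3 and SMAD4, 98 bases before it.
Gdf10: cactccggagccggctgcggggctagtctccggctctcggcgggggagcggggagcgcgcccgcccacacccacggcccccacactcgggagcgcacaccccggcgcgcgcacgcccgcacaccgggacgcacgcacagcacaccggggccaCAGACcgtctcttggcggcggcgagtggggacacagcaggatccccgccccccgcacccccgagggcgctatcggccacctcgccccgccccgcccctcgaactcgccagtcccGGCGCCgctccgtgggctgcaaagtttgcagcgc
Both motifs were sought on both strands as spelled (GGCGCC is its own reverse complement, and CAGAC reads GTCTG on the other strand). Windows were found for 40 of the 58 members, 48 windows in all. GGCGCC was present in 17 of these 48 (35.4%) and in 11.9% of all 32851 windows of the table, but the members' windows also had more G and C, with a median of 65.8% against 52.7%. CAGAC was present in 24 of the 48 (50%) and in 49.6% of all windows.

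The ligands that fell in 129 were Inhbb, Bmp6, Bmp3 and Tgfb3. Inhbb, the activin B subunit (mm9 chromosome 1, 121312042 to 121318825), had 2.0, 1.91 and 1.64 RPKM in F1, 1.61, 1.5 and 1.46 in 129, and 3.15, 2.91 and 2.84 in B6. The 129 libraries were lowest and the B6 libraries highest, with no overlap among the 3 groups, and 129 had 0.513 of the B6 level (log2 fold change -0.65, SE 0.07, adjusted p = 2.14e-05). F1 was lower than B6 (-0.48, SE 0.07, adjusted p = 0.000368), and its 0.17 over 129 did not pass (adjusted p = 0.0713).

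Bmp6, a BMP best known for iron control through hepcidin in liver (mm9 chromosome 13, 38437585 to 38591597), had 0.878, 0.971 and 0.925 RPKM in F1, 0.732, 0.685 and 0.787 in 129, and 1.94, 1.43 and 2.02 in B6. It passed the filter on low values through its B6 libraries alone, so its differences from B6 are not support for a change of the list. The log2 fold change of 129 minus B6 was -0.68 (SE 0.08, adjusted p = 0.000102) and became -1.17 with a pseudocount of 0.1 and -1.30 with voom on recovered reads. F1 minus B6 was -0.53 (adjusted p = 0.000961), and -0.87 and -0.96 with those settings.

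Bmp3, a family member that opposes BMP signalling in bone (mm9 chromosome 5, 99283458 to 99309979), had 2.32, 2.39 and 2.54 RPKM in F1, 1.76, 2.01 and 1.72 in 129, and 2.84, 3.07 and 2.52 in B6. The 129 libraries were lowest and did not overlap the others, while the highest F1 library exceeded the lowest B6 library. It was lower in 129 than in B6 (-0.43, SE 0.07, adjusted p = 0.000616) and higher in F1 than in 129 (0.27, SE 0.07, adjusted p = 0.0136), the second call being lost without 129 replicate 3 or F1 replicate 3 (0.25 in both). F1 minus B6 did not pass (-0.15, adjusted p = 0.113).

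Of the TGF-betas themselves, Tgfb3 fell in 129 against B6 (-0.29, SE 0.05, adjusted p = 0.00148). It was also lower in F1 than in B6 (-0.21, adjusted p = 0.0143), a call lost without F1 replicate 3 (-0.19). Tgfb1, the ligand most often studied in fibrosis, had 6.00 to 6.21 RPKM in F1, 5.08 to 5.36 in 129 and 4.71 to 5.77 in B6. All F1 libraries were above all parental ones. Tgfb1 rose in F1 against 129 (0.19, adjusted p = 0.0489) and against B6 (0.22, adjusted p = 0.0212). Both calls were near the threshold. The first was lost with a replicate block (adjusted p = 0.0601), with no filter and with no mean-variance trend (0.19 in each), and without B6 replicate 3 or any 129 or F1 replicate (0.17 to 0.20). The second was lost without B6 replicate 1 or 3 or F1 replicate 1 or 3 (0.18 to 0.22). Tgfb2 at 1.49 to 2.19 RPKM and Inhba, the activin A subunit, at 3.21 to 4.95 RPKM did not pass in any comparison.

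The other 8 ligands were too low to be tested. Bmp4, known for committing precursors to the fat lineage, had 0.303, 0.263 and 0.290 RPKM in F1, 0.696, 0.388 and 0.614 in 129, and 0.117, 0.184 and 0.242 in B6. These values order 129 above F1 above B6 with no overlap, but rest on 6 to 33 reads a library. Bmp7, the BMP known for brown fat, had 0 or 1 read in each library, Bmp2 had 2 to 6 reads and Bmp5 0 to 4. Mstn, the muscle growth inhibitor myostatin, was listed at 0 in all 9 libraries. Gdf5, a joint-forming ligand, had 0.518 to 0.642 RPKM in F1, 0.440 to 0.583 in 129 and 0.655 to 0.898 in B6. Gdf6 had 3 to 16 reads a library, and Bmp8b had 2 to 18, a level to be read with caution, since Bmp8a is a close copy and how reads were divided between them was not measured.

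Of the 6 genes for latency, processing and matrix, all tested, 1 rose, 1 fell and 4 did not pass in 129 minus B6. Among all genes, 15.9% rose and 21.7% fell there. Ltbp4, a latent TGF-beta binding protein of elastic fibres (mm9 chromosome 7, 28090160 to 28122631), had 2.06, 2.13 and 1.98 RPKM in F1, 3.44, 3.77 and 4.03 in 129, and 1.81, 1.78 and 2.08 in B6. The 129 libraries were highest and F1 overlapped B6. Ltbp4 was 1.98-fold higher in 129 than in B6 (0.71, SE 0.06, adjusted p = 1.08e-05), and lower in F1 than in 129 (-0.63, SE 0.06, adjusted p = 6.6e-05). F1 minus B6 was 0.08 (adjusted p = 0.37).

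Ltbp2, a fibrillin-binding relative that does not hold latent TGF-beta (mm9 chromosome 12, 86124162 to 86217445), had 5.15, 6.54 and 5.57 RPKM in F1, 6.49, 6.08 and 5.51 in 129, and 9.18, 12.3 and 7.54 in B6. The B6 libraries were highest and most spread. It was lower than B6 both in 129 (-0.58, SE 0.14, adjusted p = 0.00703) and in F1 (-0.64, SE 0.14, adjusted p = 0.00548), and 694 of its 6603 exon bases are shared with a gene on the other strand that had at most 0.0151 RPKM. Ltbp3 at 31.8 to 38.4 RPKM and Ltbp1 at 1.52 to 1.87 RPKM, which both bind latent TGF-beta, did not pass in any comparison.

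Tgfbi and Bmp1 were low in F1 against both parents. Tgfbi, a matrix protein induced by TGF-beta (mm9 chromosome 13, 56710964 to 56740700), had 1.19, 1.38 and 1.11 RPKM in F1, 2.87, 2.32 and 2.90 in 129, and 2.15, 2.62 and 2.32 in B6. F1 lay below every parental library, at 0.455 of 129 (-0.73, SE 0.08, adjusted p = 0.00013) and 0.519 of B6 (-0.59, SE 0.08, adjusted p = 0.000419). With voom these were -1.12 and -0.93, and with a pseudocount of 0.1 F1 minus B6 was -0.89. The parents overlapped (0.14, adjusted p = 0.225). Bmp1 (mm9 chromosome 14, 70874362 to 70920067) had 43.1, 46.3 and 42.4 RPKM in F1, 60.1, 58.4 and 56.4 in 129, and 56.3, 57.3 and 53.4 in B6. Again F1 was below every parental library, with log2 fold changes of -0.40 against 129 (SE 0.05, adjusted p = 0.000176) and -0.34 against B6 (SE 0.05, adjusted p = 0.00047).

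Of the 13 receptors and co-receptors, 10 were tested. In 129 minus B6 2 rose and 8 did not pass, where 15.9% of all genes rose and 21.7% fell. Tgfbr2, the type II receptor that binds TGF-beta (mm9 chromosome 9, 115996813 to 116084481), had 50.2, 49.6 and 49.9 RPKM in F1, 78.3, 78.2 and 76.7 in 129, and 46.9, 43.6 and 44.2 in B6. Its replicates were tight and the 3 groups did not overlap, with F1 close to B6. Tgfbr2 was 1.73-fold higher in 129 than in B6 (0.78, SE 0.04, adjusted p = 1.17e-07). F1 had 0.642 of the 129 level (-0.63, SE 0.04, adjusted p = 2e-06) and 1.11 times the B6 level (0.15, SE 0.04, adjusted p = 0.0138).

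Eng, the co-receptor endoglin (mm9 chromosome 2, 32502115 to 32538189), had 3.53, 3.75 and 3.34 RPKM in F1, 8.0, 8.14 and 7.82 in 129, and 4.19, 4.52 and 4.40 in B6. The groups did not overlap, and F1 was the lowest. Eng was 1.83-fold higher in 129 than in B6 (0.74, SE 0.05, adjusted p = 1.09e-06). F1 had 0.443 of the 129 level (-0.99, SE 0.05, adjusted p = 6.65e-07) and 0.810 of the B6 level (-0.24, SE 0.05, adjusted p = 0.00396). Eng is abundant in endothelium. The summed RPKM of 7 endothelial markers was 4.30 to 4.56 in F1, 2.87 to 3.66 in 129 and 5.62 to 6.82 in B6. Of the 7, only Pecam1 and Tek were tested, and both fell in 129 against B6 (-0.58 and -0.50). Eng is also made by mesenchymal cells, and the part of any cell type in its differences was not tested. Of its 3572 exon bases, 61 are shared with Fpgs on the other strand, which had 4.17 to 5.44 RPKM.

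The remaining receptors differed mainly between F1 and the parents. Tgfbr3, betaglycan, which presents TGF-beta2 to Tgfbr2, had 46.2 to 48.2 RPKM in F1, 58.4 to 62.1 in 129 and 54.9 to 58.1 in B6. It was lower in F1 than in 129 (-0.35, adjusted p = 0.000148) and than in B6 (-0.26, adjusted p = 0.000895), and 129 minus B6 did not pass (0.09, adjusted p = 0.0949). Acvr1, the type I receptor ALK2 used by BMPs, was lower in F1 than in B6 (-0.32, adjusted p = 0.00188). It was also lower than in 129 (-0.20, adjusted p = 0.0288), a call lost with no filter (-0.20) and without 129 replicate 1 or 3 or any F1 replicate (-0.20 to -0.16).

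Acvrl1, the type I receptor ALK1, and Acvr2a, an activin type II receptor, had smaller changes whose calls were lost in several settings. Acvrl1 in F1 was -0.17 against 129 (adjusted p = 0.0469) and -0.18 against B6 (adjusted p = 0.0302). The first call was lost with a replicate block, no filter or no mean-variance trend (-0.17 in each), with median-of-ratios rescaling (-0.15), and without B6 replicate 1, any 129 replicate or F1 replicate 1 or 3 (-0.18 to -0.13). The second was lost with no filter (-0.18), with rescaling (-0.13), and without B6 replicate 1 or 2 or F1 replicate 1 or 3 (-0.17 to -0.15). Acvr2a in F1 was -0.23 against 129 (adjusted p = 0.0273), lost with no filter (-0.23) and without 129 replicate 1 or 2 or F1 replicate 1 or 2 (-0.25 to -0.18). Of its 5681 exon bases, 511 are shared with Orc4 on the other strand, which had 7.29 to 8.42 RPKM. Tgfbr1, the type I TGF-beta receptor, at 6.57 to 8.67 RPKM, Bmpr1a, a BMP type I receptor, at 20.5 to 23.1 RPKM, Bmpr2 at 6.19 to 8.19 RPKM and Acvr1b, the activin type I receptor, at 5.10 to 6.36 RPKM did not pass in any comparison. Bambi, a decoy receptor without a kinase, was untested at 0.685 to 0.717 RPKM in F1, 0.801 to 0.912 in 129 and 0.603 to 0.715 in B6. Bmpr1b at 0.0778 to 0.267 RPKM and Acvr2b at 0.458 to 0.749 RPKM were also untested.

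Of the 9 extracellular antagonists and modulators, 7 were tested. In 129 minus B6 4 rose and 3 did not pass, where 15.9% of all genes rose and 21.7% fell. Bmper, the BMP-binding protein also called crossveinless-2 (mm9 chromosome 9, 23027520 to 23289659), had 6.00, 5.41 and 5.38 RPKM in F1, 9.82, 8.58 and 8.55 in 129, and 6.71, 5.14 and 5.96 in B6. The 129 libraries stood above the rest and F1 lay within the B6 range. Bmper was 1.51-fold higher in 129 than in B6 (0.53, SE 0.08, adjusted p = 0.000552) and lower in F1 than in 129 (-0.60, SE 0.08, adjusted p = 0.000502).

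Fstl3, a secreted activin and myostatin antagonist (mm9 chromosome 10, 79240019 to 79245375), had 3.92, 4.33 and 3.83 RPKM in F1, 3.64, 4.51 and 4.84 in 129, and 2.73, 2.81 and 1.96 in B6. Here F1 overlapped 129, and B6 was lowest. It was 1.73-fold higher in 129 than in B6 (0.61, SE 0.11, adjusted p = 0.00123) and 1.61-fold higher in F1 than in B6 (0.53, SE 0.11, adjusted p = 0.00412). Of its 1953 exon bases, 1157 are shared with Prss57 on the other strand, which had at most 0.0348 RPKM.

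Fstl1 (mm9 chromosome 16, 37777141 to 37836602) had 207.5, 216.2 and 203.0 RPKM in F1, 302.5, 294.9 and 281.5 in 129, and 248.9, 265.9 and 216.5 in B6. The groups did not overlap, with F1 lowest and 129 highest. It rose in 129 against B6 (0.27, SE 0.07, adjusted p = 0.0118) and was lower in F1 than in 129 (-0.49, SE 0.07, adjusted p = 0.000617). The F1 minus B6 call (-0.22, SE 0.07, adjusted p = 0.0382) was lost with median-of-ratios rescaling (-0.16), with no filter (-0.22) and without any one of B6 replicates 1 and 2, 129 replicates 1 and 2 and all F1 replicates (-0.24 to -0.15).

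Chrdl1, a chordin-like BMP antagonist, rose in 129 against B6 (0.16, adjusted p = 0.0317), a call lost with no filter (0.16) and without replicate 1 or 2 of either parent (0.13 to 0.18). Nbl1, the antagonist DAN, was lower in F1 than in 129 (-0.22, adjusted p = 0.0182) and than in B6 (-0.20, adjusted p = 0.0264). These calls were lost without F1 replicate 2 or 3 and without replicate 2 of the parent compared (-0.20 to -0.19 against 129, and -0.18 to -0.14 against B6), and the call against B6 also with median-of-ratios rescaling (-0.14). Fst, follistatin, at 20.9 to 25.5 RPKM, was lower in F1 than in 129 (-0.18, adjusted p = 0.0403), lost with no filter or no mean-variance trend (-0.18 in both), with rescaling (-0.16) and without any 129 replicate or F1 replicate 2 or 3 (-0.19 to -0.15). Chrd, chordin, at 1.98 to 2.79 RPKM did not pass in any comparison. Nog, noggin, was untested at 0.406 to 0.555 RPKM in F1, 0.475 to 0.768 in 129 and 0.898 to 0.947 in B6, with every B6 library above the rest. Grem1, gremlin, was untested on 2 to 28 reads a library.

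The SMADs carry the signal to the nucleus. Of 8 SMADs, 7 were tested, and 0 passed in 129 minus B6, where 37.5% of all genes passed. In F1 minus 129 and in F1 minus B6, 1 of the 7 passed, where 27.7% and 31.2% of all genes did. For 129 minus B6, 0 were higher and 2 lower at an unadjusted p under 0.05, and voom on recovered reads called 0 in each direction. Voom called 2 lower in F1 minus B6 and 1 lower in F1 minus 129. Shares of all genes at the unadjusted p and with voom are not given here. Their summed level was 49.4 to 52.7 RPKM in F1, 51.0 to 53.1 in 129 and 51.4 to 55.6 in B6, overlapping in all 3 groups. Smad3, the TGF-beta SMAD, had 6.31 to 6.96 RPKM in F1, 7.81 to 8.20 in 129 and 7.22 to 7.75 in B6. It was lower in F1 than in 129 (-0.25, adjusted p = 0.00384) and than in B6 (-0.19, adjusted p = 0.0158), the second call being lost with median-of-ratios rescaling (-0.14) and without B6 replicate 1 or F1 replicate 3 (-0.17 without either). The inhibitory Smad6 had the largest parental value, -0.24 (SE 0.09), which did not pass (adjusted p = 0.052). Smad1, Smad2, Smad4, Smad5 and Smad7 did not pass in any comparison, and Smad9 was untested at 0.514 to 0.787 RPKM.

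The nuclear targets moved in both directions. Of 6 genes, all tested, 2 rose, 2 fell and 2 did not pass in 129 minus B6, where 15.9% of all genes rose and 21.7% fell. Id proteins block basic helix-loop-helix factors, and their genes are classical BMP and SMAD targets. Id3 (mm9 chromosome 4, 135699737 to 135701307) had 120.1, 132.1 and 111.1 RPKM in F1, 164.5, 178.5 and 171.3 in 129, and 102.6, 107.7 and 104.1 in B6. The groups did not overlap and F1 lay between the parents. Id3 was 1.64-fold higher in 129 than in B6 (0.70, SE 0.06, adjusted p = 8.04e-06) and lower in F1 than in 129 (-0.50, SE 0.06, adjusted p = 0.00022). The F1 minus B6 call (0.20, SE 0.06, adjusted p = 0.0287) was lost with no filter (0.20) and without B6 replicate 1 or 3 or F1 replicate 1 or 2 (0.14 to 0.21). Of 16 other tested genes within 500 kb of Id3, 4 were higher and 6 lower in 129. Among all genes tested, 15.9% were higher and 21.7% lower.

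Id4 ran the other way. This gene (mm9 chromosome 13, 48356796 to 48359405) had 4.48, 4.75 and 4.17 RPKM in F1, 4.81, 4.61 and 4.24 in 129, and 6.95, 8.19 and 7.65 in B6. F1 overlapped 129, and every B6 library was higher. Id4 was lower than B6 both in 129 (-0.63, SE 0.07, adjusted p = 3.23e-05) and in F1 (-0.65, SE 0.07, adjusted p = 5.82e-05). Id1 had 19.0, 21.0 and 16.9 RPKM in F1, 23.2, 24.2 and 24.7 in 129, and 18.9, 19.1 and 19.7 in B6. It was higher in 129 than in B6 (0.31, SE 0.07, adjusted p = 0.0041) and lower in F1 than in 129 (-0.33, adjusted p = 0.0043). Id2 had 12.8 to 14.4 RPKM in F1, 12.4 to 14.8 in 129 and 14.5 to 20.1 in B6. Its parental groups overlapped, and the call of -0.28 in 129 minus B6 (SE 0.10, adjusted p = 0.0491) was lost in 13 of 16 other settings, among them leaving out any library but B6 replicate 3 (-0.17 without B6 replicate 2).

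The promoter windows of Id2, Id3 and Id4 are shown because Id3 and Id4 moved in opposite directions between the parents. They are RefSeq windows of GRCm38.p6 with the same capitals as above: Id2 at chr12:25096043-25096342 on the minus strand, Id3 at chr4:136143572-136143871 on the plus strand and Id4 at chr13:48260866-48261165 on the plus strand.
Id2: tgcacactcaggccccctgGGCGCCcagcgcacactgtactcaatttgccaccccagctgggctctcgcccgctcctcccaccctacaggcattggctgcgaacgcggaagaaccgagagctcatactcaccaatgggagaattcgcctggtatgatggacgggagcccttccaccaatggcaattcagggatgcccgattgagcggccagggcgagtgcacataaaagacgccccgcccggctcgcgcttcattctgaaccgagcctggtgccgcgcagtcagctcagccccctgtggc
Id3: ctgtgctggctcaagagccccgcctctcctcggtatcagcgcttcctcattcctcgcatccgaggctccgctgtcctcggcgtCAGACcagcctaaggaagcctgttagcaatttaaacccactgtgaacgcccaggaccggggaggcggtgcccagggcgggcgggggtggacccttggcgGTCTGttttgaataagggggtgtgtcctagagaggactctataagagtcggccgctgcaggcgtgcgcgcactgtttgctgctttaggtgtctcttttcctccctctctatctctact
Id4: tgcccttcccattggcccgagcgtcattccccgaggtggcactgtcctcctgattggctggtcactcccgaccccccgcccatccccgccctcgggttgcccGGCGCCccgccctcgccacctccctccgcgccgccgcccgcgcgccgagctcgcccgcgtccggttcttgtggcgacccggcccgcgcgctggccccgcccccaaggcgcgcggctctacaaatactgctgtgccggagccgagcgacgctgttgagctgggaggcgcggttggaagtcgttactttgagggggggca
In these windows Id2 held GGCGCC 231 bases before its start and Id4 held it 148 bases before. Id3 held no GGCGCC but had CAGAC 167 bases and its reverse GTCTG 68 bases before the start. No window was found for Id1, and a link between these motifs and the direction of change was not tested.

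Ski, a co-repressor that binds SMADs, had 14.3 to 15.2 RPKM in F1, 16.8 to 17.2 in 129 and 15.6 to 16.7 in B6. It was lower in F1 than in 129 (-0.19, adjusted p = 0.00573). Against B6 the value of -0.12 (adjusted p = 0.0471) was lost with rescaling (-0.07), with no mean-variance trend (-0.12) and without B6 replicate 1 or 2, any 129 replicate or F1 replicate 1 or 3 (-0.12 to -0.10). Its relative Skil, at 2.48 to 3.45 RPKM, did not pass in any comparison.

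More members were lower than higher in F1 against each parent. In F1 minus 129, 20 of the 44 tested members passed, 45.5% of them, against 27.7% of all genes tested. Of these, 2 were higher (4.55% of members, against 12.0% of all genes) and 18 lower (40.9% of members, against 15.7% of all genes). The 2 higher members were Tgfb1 and Bmp3. Members called higher numbered 0 without 129 replicate 3 and 1 without B6 replicate 3 or any other 129 or F1 library. Without F1 replicate 3 the calls of Tgfb1 and Bmp3 were both lost, so the 1 there was another member. The median log2 fold change was -0.08 over members and -0.01 over all genes. Changes of at least 0.4 were called in 9 members (20.5%), all lower in F1, and in 7.30% of all genes. The 9 were Gdf10, Eng, Tgfbi, Tgfbr2, Ltbp4, Bmper, Id3, Fstl1 and Bmp1. The groups did not overlap for 26 members (59.1%) and 44.5% of all genes.

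In F1 minus B6, which shares the F1 libraries with that comparison, 19 of the 44 passed, 43.2% of members, against 31.2% of all genes. Of these, 4 were higher (9.09% of members, against 11.0% of all genes) and 15 lower (34.1% of members, against 20.2% of all genes). With median-of-ratios rescaling the counts were 5 higher and 10 lower, and the share of all genes in that setting is not given here. The 4 were Tgfb1, Tgfbr2, Fstl3 and Id3, and without B6 replicate 1, B6 replicate 3 or F1 replicate 1 there were 2. Without single libraries the lower calls numbered 10 to 16. The median was -0.13 over members and -0.04 over all genes. Changes of at least 0.4 were called in 6 members (13.6%), 1 higher and 5 lower, and in 8.57% of all genes. Bmp6, tested through its B6 libraries alone, is among the lower members in these counts. The groups did not overlap for 25 members (56.8%) and 44.2% of all genes.

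**Figure D3:**
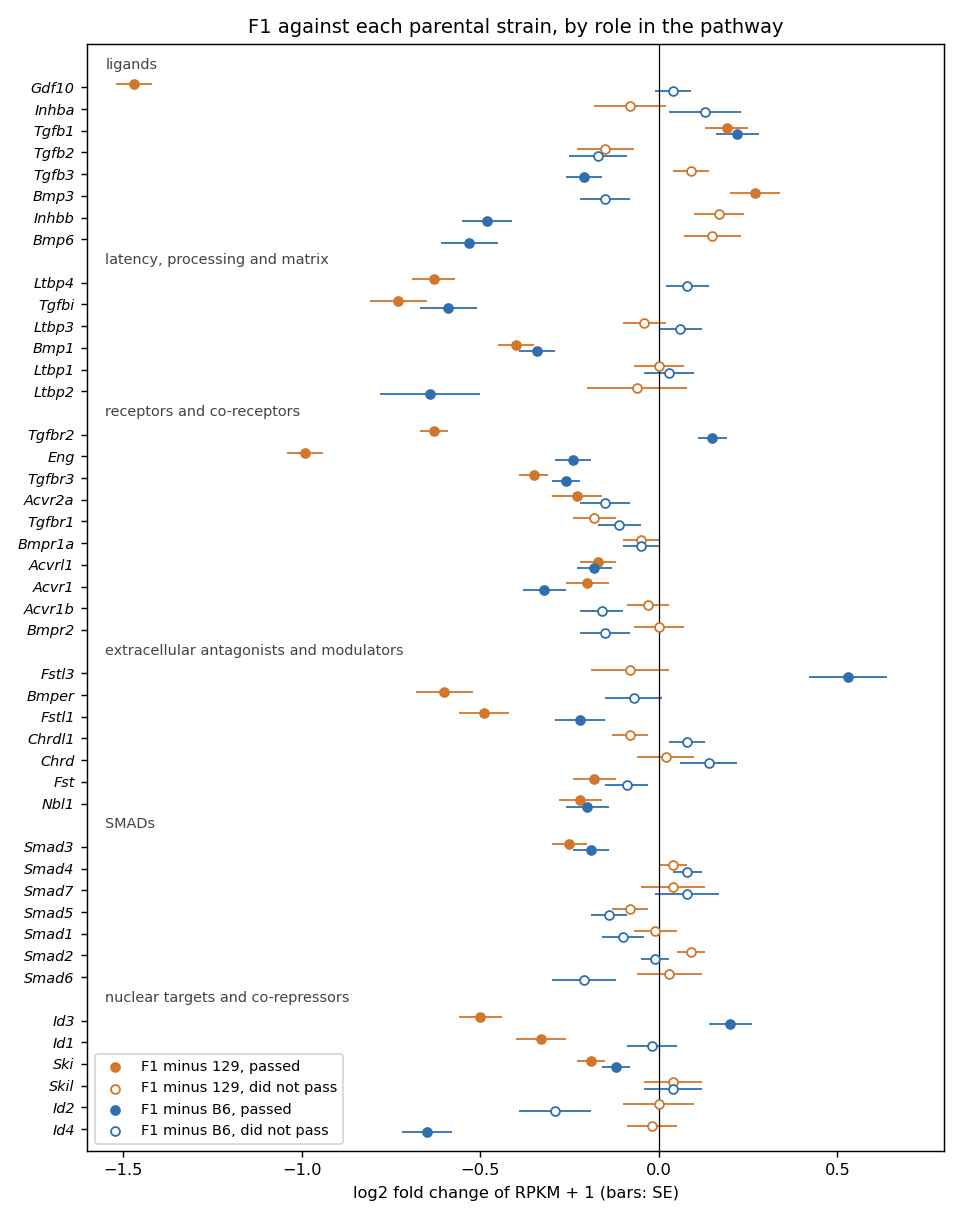
Limma log2 fold changes of F1 minus 129 and F1 minus B6 on log2(RPKM + 1) for the 44 tested members, with bars of 1 standard error. The comparisons share the 3 F1 libraries, and Tgfbi, Bmp1 and Tgfbr3 lie below 0 in both, while Gdf10 is at -1.47 against 129 and 0.04 against B6.

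The mid-parent value (parental log2 levels averaged) uses the same libraries again. In F1 minus mid-parent, 18 members passed (40.9%, against 23.2% of all genes): Tgfb1 was higher (8.35% of all genes were) and 17 members were lower (38.6%, against 14.8% of all genes). The median was -0.15 over members and -0.03 over all genes. Gdf10 (-0.72, adjusted p = 1.88e-05), Tgfbi (-0.66, adjusted p = 0.000191) and Eng (-0.61, adjusted p = 2.63e-05) lay farthest below, the 3 members past 0.4, as 4.01% of all genes were. With voom Tgfbi was at -1.02. Bmp1 (-0.37, adjusted p = 0.000221), Fstl1 (-0.35, adjusted p = 0.00259), Id4 (-0.34, adjusted p = 0.00236) and Bmper (-0.33, adjusted p = 0.0081) followed. The Tgfb1 call (0.21, adjusted p = 0.0218) was lost without any one F1 library (0.20 to 0.22). The Id1 call (-0.18, adjusted p = 0.0489) was lost in 14 of 16 settings, with -0.10 without F1 replicate 3.

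By summed RPKM of a role, which the abundant genes set, ligands had 39.4 to 40.1 in F1, 68.7 to 71.9 in 129 and 39.2 to 43.5 in B6. Receptors summed to 164.0 to 172.2 RPKM in F1, 215.5 to 225.5 in 129 and 174.8 to 185.5 in B6. Antagonists summed to 263.1 to 276.9 RPKM in F1, 354.3 to 374.4 in 129 and 278.9 to 332.2 in B6. In each of these 3 roles every 129 library was above every F1 and B6 library, and for receptors and antagonists every F1 library was also below every B6 library. Gdf10 made up most of the ligand sum in 129 (47.5 to 49.7 RPKM). Of the tested ligands, 1 rose and 4, Bmp6 among them, fell in 129 against B6. Fstl1 made up most of the antagonist sum (281.5 to 302.5 RPKM in 129). Latency, processing and matrix genes summed to 87.2 to 94.4 RPKM in F1, 105.9 to 110.7 in 129 and 98.7 to 111.9 in B6. Nuclear targets summed to 162.8 to 190.3 RPKM in F1, 227.0 to 241.5 in 129 and 163.9 to 175.2 in B6.

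Other genes of the pathway, from lists outside the 58, were tested the same way. Of 19 other extracellular modulators and activators tested, 10 were higher and 3 lower in 129 than in B6, with a median of 0.19, where 15.9% of all genes were higher and 21.7% lower. In F1 minus 129, 11 of the 19 were lower, with a median of -0.21, and 8 did not pass, where 15.7% of all genes were lower. In F1 minus B6, 2 were higher and 5 lower, with a median of -0.12, where 11.0% of all genes were higher and 20.2% lower. Dcn, the proteoglycan decorin that binds TGF-beta, averaged 203.0 ± 7.25 RPKM in F1, 417.6 ± 22.5 in 129 and 207.7 ± 15.2 in B6 (SD, n = 3 each). Dcn was higher in 129 than in B6 (1.01, SE 0.06, limma adjusted p = 6.92e-07) and lower in F1 than in 129 (-1.04, SE 0.06). Aspn, a relative of decorin that binds TGF-beta, averaged 21.2 ± 0.624 RPKM in F1, 35.5 ± 4.22 in 129 and 18.4 ± 2.01 in B6. Fbn2, a fibrillin of the microfibrils that hold latent complexes, averaged 7.99 ± 1.12 RPKM in F1, 12.1 ± 0.975 in 129 and 6.43 ± 0.220 in B6. The parental differences were 0.91 for Aspn and 0.82 for Fbn2, and both passed.

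Among 17 other ligands, 4 were tested, and Bmp8a rose in 129 (0.48, adjusted p = 0.00328), with the same caution for its copy Bmp8b. Gdf11 (0.10, adjusted p = 0.17), Gdf15 (0.12) and Inha (0.00) did not pass. Among 4 other receptors and co-receptors tested, Rgma, a BMP co-receptor, averaged 9.78 ± 0.241 RPKM in F1, 13.5 ± 0.628 in 129 and 9.55 ± 0.202 in B6, and rose in 129 against B6 (0.46, adjusted p = 1.66e-05). Acvr1c, the type I receptor ALK7 that is abundant in adipocytes, averaged 14.1 ± 1.29 RPKM in F1, 11.0 ± 0.213 in 129 and 14.9 ± 0.168 in B6, and fell in 129 (-0.40, adjusted p = 0.000242). Rgmb (-0.15, adjusted p = 0.088) and Neo1 (-0.02, adjusted p = 0.851) did not pass. Of 21 intracellular regulators, all tested, 3 rose, 3 fell and 15 did not pass in 129, where 15.9% of all genes rose and 21.7% fell. The 4 with the smallest p were Smurf1, a ubiquitin ligase for SMADs (-0.24, adjusted p = 0.00187), Ube2o (0.20, adjusted p = 0.00417), Zfyve9, the SMAD anchor SARA (-0.18, adjusted p = 0.0149), and Strap (-0.14, adjusted p = 0.0179).

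Genes known to respond to TGF-beta were taken as a further list. Of 21, all tested and 3 of them among the 58, 4 rose, 3 fell and 14 did not pass in 129 minus B6, where 15.9% of all genes rose and 21.7% fell. Col1a2 (0.80, adjusted p = 7.49e-06) and Col3a1 (0.56, adjusted p = 9.54e-05), fibrillar collagen chains, rose. Ctgf, a secreted SMAD target, averaged 12.3 ± 0.841 RPKM in F1, 11.1 ± 0.795 in 129 and 20.8 ± 0.255 in B6 and fell in 129 (-0.85, adjusted p = 1.48e-06). Cdkn1a, a cell cycle inhibitor, fell as well (-0.61, adjusted p = 6.89e-06). In F1 minus 129, 2 of the 21 were higher and 7 lower, where 12.0% of all genes were higher and 15.7% lower. In F1 minus B6 5 were higher and 7 lower, where 11.0% of all genes were higher and 20.2% lower. Of 12 BMP response genes 7 were tested, and in 129 minus B6 2 rose, 1 fell and 4 did not pass, the calls being those of Id1, Id3 and Id2 above.

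Some cell type markers also differed between these groups, in directions that varied by cell type. For comparison, 15.9% of all genes were higher and 21.7% lower in 129 than in B6. The shares higher and lower were 12.0% and 15.7% in F1 minus 129, and 11.0% and 20.2% in F1 minus B6. Of 5 tested markers of adipocyte progenitors, 2 were higher and 1 lower in 129 than in B6, 3 were lower in F1 than in 129, and 3 were lower in F1 than in B6. Dlk1, the marker lower in 129, averaged 1.29 ± 0.220 RPKM in F1, 0.925 ± 0.361 in 129 and 1.63 ± 0.222 in B6 (-0.47, limma adjusted p = 0.0195 in 129 minus B6). Pdgfra, a mesenchymal progenitor marker, averaged 41.7 ± 3.44 RPKM in F1, 81.2 ± 5.10 in 129 and 43.8 ± 4.22 in B6, and Cd34 averaged 11.5 ± 0.314 in F1, 23.6 ± 0.650 in 129 and 16.8 ± 0.496 in B6. The sum of 6 progenitor markers was 307.8 to 387.7 RPKM in F1, 441.0 to 460.8 in 129 and 422.0 to 567.9 in B6, so 129 and B6 overlapped. The sum of 5 smooth muscle and myofibroblast markers was 99.9 to 106.3 RPKM in F1, 127.9 to 137.0 in 129 and 128.9 to 143.9 in B6, a sum carried by Acta2 and Tagln. Of the 5, 2 were lower in F1 than in 129, 5 were lower in F1 than in B6, and 3 were lower in 129 than in B6, which were Myh11 (-0.89), Cnn1 (-0.69) and Actg2 (-1.11). The sum of 6 adipocyte markers was 33334.3 to 35801.9 RPKM in F1, 29460.9 to 31815.2 in 129 and 25225.5 to 29110.2 in B6, most of it Fabp4, which averaged 31345.1 ± 1495.9 in F1, 26914.7 ± 1267.3 in 129 and 23544.5 ± 1928.7 in B6. Of the 6, 1 was higher (Pparg) and 2 lower (Cidec and Lep) in F1 than in 129, 2 were higher in F1 than in B6 (Fabp4 and Pparg), and Cidec was higher and Adipoq lower in 129 than in B6. The 6 tested macrophage markers had 0 higher and 2 lower in 129 than in B6, and 0 passed in F1 minus 129 or in F1 minus B6. The 2 tested pericyte markers were lower in 129 than in B6 and higher in F1 than in 129, and 1 was lower in F1 than in B6. None of these progenitor, smooth muscle or adipocyte markers was at 0 in all libraries. The part of these cell types in the members' differences was not tested.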

How the data were processed

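Poly(A) RNA of 9 cultured adipocyte samples, 3 per group as the labels give them, was sequenced with a stranded kit, per the labels' protocols. The authors deposited RPKM values, 1 per gene and library. STAR and genome build mm9 are named in the submitters' processing notes. The counter, its use of strand, the annotation, versions and filters were not given in the sources used here. How many 129 reads were lost through mismatches with the mm9 sequence was not measured. RPKM times exon length summed to 1000000 in each library, and whole reads were recovered for 100.0% of values within 0.1 read. Depths are these recovered reads.

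Genes that reached an RPKM of 1 in 3 or more of the 9 libraries were fitted as log2(RPKM + 1) with limma 3.58.1 under R 4.3.3, with a mean-variance trend, 1 mean per group and a spread shared by all 9 libraries. P-values were two-sided with Benjamini-Hochberg adjustment over all genes tested. The procedure was tested on simulated data with the same added spread for every gene, which was not estimated from these libraries. Of the 24015 rows, 2 symbols stood on more than 1, and cells in 5 unnamed columns, on 31 rows and on 0 member rows, were not used. Gene positions are those of the deposited tables and build mm9, and promoter windows are RefSeq's on GRCm38.p6. The members and lists were chosen with earlier results of these data known. Members past the threshold in a pairwise comparison and an absolute log2 change of 0.4 or more are given by library, the rest by ranges or calls, and of other pathway lists up to 4 genes with the smallest p in 129 minus B6. A gene that this rule names is not reported here. The single cell type markers named were chosen after their values were seen. Alternatives were a pseudocount of 0.1, no filter, an RPKM minimum of 3, median-of-ratios rescaling, voom on recovered reads, a replicate block, no trend and leaving out each library.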

Additional observations from a re-analysis of the deposited data

How the results depend on the processing

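Over 16 other settings, 52 of the 74 called member values kept their call in every setting that gave them a value, and 0 reversed in sign. Shares of all genes called in these settings are not given here. The RPKM minimum of 3 gave no value for 9 of the 74, those of Bmp3, Bmp6, Inhbb and Tgfbi, so 44 of the 52 were kept in all 16 settings. The number of members higher in F1 than in 129, 2 as reported, was 1 with no filter and 1 with an RPKM minimum of 3. The number higher in F1 than the mid-parent value, 1 as reported, was 2 with median-of-ratios rescaling and 2 with voom on recovered reads. Rescaling moved the median of all genes by 0.018 to 0.049.

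With single libraries left out, members in 129 minus B6 numbered 9 to 10 higher and 6 to 8 lower. In F1 minus B6 they numbered 2 to 4 higher and 10 to 16 lower. In F1 minus 129 they numbered 0 to 2 higher (0 without 129 replicate 3) and 14 to 19 lower. Against the mid-parent value they numbered 0 to 1 higher and 14 to 18 lower. Of single libraries, leaving out F1 replicate 3 lost the most calls, 18 of 74. Of other settings, no filter lost 12 and rescaling 11. The cause was not tested.

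Replicate numbers are shared between groups. In their deviations from group means, same-numbered libraries correlated at -0.192 to 0.215 and differently numbered ones at -0.203 to 0.231. Between B6 and 129, same-numbered pairs stood at 0.066 to 0.215, above all differently numbered pairs at -0.174 to 0.052. Pairs with F1 did not show this order. These values cannot tell if same-numbered libraries share more than a number. With a replicate block, 70 of the 74 calls held, and 1 member was higher in F1 than in 129.

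The 14 untested members lay below the RPKM minimum, and groups of 3 were not tested for outliers.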
